A study of Homo sapiens with 12 samples.

Results

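The keratin gene family was followed across 12 RNA-seq libraries of a human podocyte line. Members were the rows of the count table whose Ensembl identifier maps to a protein-coding symbol made of KRT, digits and at most 1 letter. Keratin-associated protein genes and pseudogenes were left out. Of 62262 rows, 70 matched the symbol pattern, 15 of these were pseudogenes, and 55 were members. In GENCODE 29 on GRCh38, 27 of the 55 lie on chromosome 12 and 28 on chromosome 17. The filter on low counts kept 26 of the 55. Another 3 (KRT26, KRT28 and KRT76) had no count in any library, 2 (KRT20 and KRT32) reached 10 counts in a library without passing the filter, and 24 stayed under 10 counts in every library.

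The cells were a conditionally immortalized human podocyte line that carries a temperature-sensitive SV40 T gene. In all groups alike, they were expanded at the temperature that keeps the T antigen active and differentiated at a higher one that inactivates it. Podocytes are the cells that wrap the glomerular capillaries of the kidney. The 4 groups of 3 libraries were given DMSO alone, CSA (cyclosporine A), TAC (tacrolimus) or VCS (voclosporin) for 24 h, the inhibitors at 100 nM. All 3 compounds block calcineurin, a phosphatase that moves NFAT factors into the nucleus. In structure VCS is an analog of the cyclic peptide CSA, whereas TAC is a macrolide. The line is a single culture model, and the labels do not say whether replicates were separate passages, days or wells, so p-values measure the spread between these libraries, which may be technical.

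Keratins are the intermediate filament proteins of epithelial cells, and a filament is built from pairs of a type I and a type II keratin. Simple epithelia use KRT8 and KRT18, often with KRT7 and KRT19. Stratified squamous epithelia use KRT5 with KRT14 in the basal layer, KRT1 with KRT10 above it in skin, KRT4 with KRT13 in mucosa, and KRT6, KRT16 and KRT17 after injury. Podocytes in the kidney are known for vimentin filaments, whereas the parietal cells of Bowman capsule and the tubule carry simple keratins.

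Several keratins are near copies of each other, which bears on how far their counts can be told apart. The stretches shown first separate them most within single coding exons of equal length in each set. Other exons and untranslated parts were not searched. Each line gives 90 coding bases, 5′ to 3′ on the gene's strand, from GENCODE 29 on GRCh38, with the positions that differ within the set in capitals. For the KRT6 genes the stretch lies in exon 2, at coding positions 656 to 745, on the minus strand at chr12:52491532-52491621 (KRT6A), chr12:52450416-52450505 (KRT6B) and chr12:52472076-52472165 (KRT6C).
KRT6A: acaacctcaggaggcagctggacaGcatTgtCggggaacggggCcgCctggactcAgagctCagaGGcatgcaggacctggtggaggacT
KRT6B: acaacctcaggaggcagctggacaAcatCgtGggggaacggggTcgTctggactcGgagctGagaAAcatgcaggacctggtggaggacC
KRT6C: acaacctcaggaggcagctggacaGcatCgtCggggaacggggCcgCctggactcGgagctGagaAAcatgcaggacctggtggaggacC
The 3 KRT6 genes differed at 10 of these 90 positions, and over the whole coding sequence of 1692 bases KRT6A and KRT6B were 97.52% identical, KRT6A and KRT6C 97.93%, and KRT6B and KRT6C 98.52%. KRT14, KRT16 and KRT17, type I keratins of squamous cells, are shown in exon 5, on the minus strand at chr17:41583585-41583674, chr17:41610888-41610977 and chr17:41621000-41621089.
KRT14: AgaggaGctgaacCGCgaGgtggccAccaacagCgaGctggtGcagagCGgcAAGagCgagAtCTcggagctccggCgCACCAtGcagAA
KRT16: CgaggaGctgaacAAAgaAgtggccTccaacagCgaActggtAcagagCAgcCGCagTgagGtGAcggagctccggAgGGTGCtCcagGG
KRT17: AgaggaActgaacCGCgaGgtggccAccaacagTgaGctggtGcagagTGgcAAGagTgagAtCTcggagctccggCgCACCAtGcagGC
In this stretch KRT14 differed from KRT16 at 25 bases and from KRT17 at 6. Over the 5 of 8 coding exons with equal length, 749 bases, KRT14 was 85.31% identical to KRT16 and 91.99% to KRT17. The hair keratins KRT81 and KRT86 were 97.19% identical over 1279 coding bases. Shared 31-base words showed the same limit on the whole transcript. Of the words of KRT6A, KRT6B and KRT6C, 52.7%, 58.3% and 61.7% also occurred in other genes, against 7.20% for KRT5 and 1.57% for KRT4. The share was 46.1% for KRT14, led by the pseudogene KRT16P6, 53.2% for KRT81, 59.5% for KRT8 and 60.4% for KRT18. KRT33B shared 40.3%, led by KRT33A, and KRT222 58.3%, all with the gene AC073508.2 on the same strand. Values of KRT6A, KRT6B, KRT6C, KRT14, KRT16, KRT17, KRT33B, KRT81, KRT86 and KRT222 are therefore uncertain as far as reads could be split among genes.

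Library totals ran from 28808213 to 36077072 counts. Keratins took 0.281 to 0.344% of the counts of a library, and simple keratins made up 91.5 to 93.4% of the keratin counts. Among podocyte markers NPHS1, which encodes nephrin, had 1 to 11 counts, while SYNPO, an actin-associated podocyte protein, had 1351 to 2321 counts and WT1 20 to 50. Vimentin (VIM) was measured at 3517 to 4133 CPM (counts scaled to a common library size by TMM in edgeR).

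Each inhibitor was compared with DMSO, and the inhibitors with each other, over 19784 tested genes. By edgeR's quasi-likelihood test with Benjamini-Hochberg adjustment over all tested genes, at a threshold of 0.05, 0 of the 26 tested keratins passed in any of 7 tests. Few genes passed at all by edgeR: 0.0101% in CSA against DMSO, 0.0354% in TAC, 0.00505% in VCS, 0.0303% in CSA against TAC, 0.0101% in VCS against CSA, 0.0253% in VCS against TAC and 0.0505% in the test of any difference among the 4 groups. DESeq2, an alternative, was fitted to 39923 genes and 52 keratins with no filter on low counts before the fit. Its own filtering then left some genes without an adjusted p, KRT4 in CSA against TAC among them. Its shares are of all genes fitted. In CSA against DMSO it called 2 keratins (KRT5 and KRT14), where 0.0175% of its genes passed. In TAC it called 3 (these and KRT4), where 0.0852% did. It called 2 in VCS against CSA (0.0276%), 2 in VCS against TAC (0.0927%) and 5 in the test of any difference (0.168%). At an unadjusted p under 0.05, 5 keratins were counted in CSA against DMSO, all lower, where the share over all tested genes was 3.75%. With KRT6A, KRT6B and KRT6C summed to 1 row, and KRT81 with KRT86, this count was 3 of 23. In TAC 9 were counted, 7 lower and 2 higher, against a share of 4.65%, or 8 of 23 with the near copies summed. In VCS 2 were counted, both higher, against 3.27%, and 2 of 23 with the near copies summed. Libraries of the 2 groups did not overlap for 7 keratins that lay below DMSO in CSA (4.93% of all tested genes did so) and 0 that lay above (4.94%). In TAC 9 lay below (6.44%) and 3 above (5.99%), and in VCS 1 lay below (4.16%) and 2 above (3.32%). The 26 passed the filter partly through the groups where they are high, so these counts describe the tested members and not the family.

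**Figure D1:**
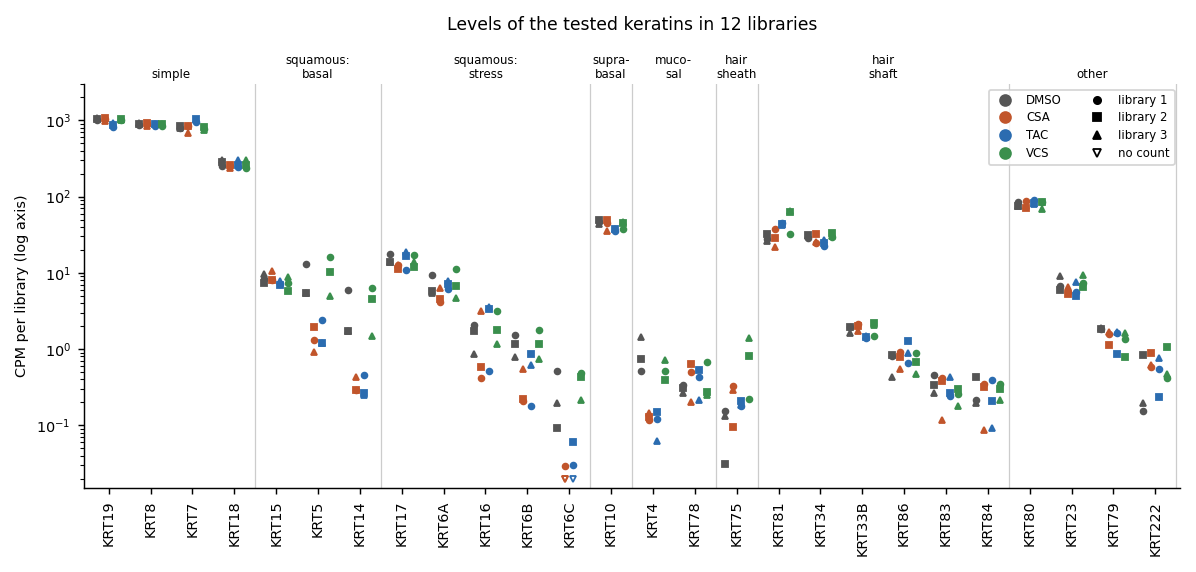
CPM of the 26 tested keratins in each of 12 libraries, on a log axis, ordered by class and coloured by treatment, with the marker giving the library number and open triangles a library with no count. KRT19, KRT8 and KRT7 lie between 681 and 1073 in all libraries, and KRT5, KRT14, KRT4 and KRT6C are the keratins whose CSA and TAC points all lie below the DMSO and VCS points.

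KRT19, KRT8, KRT7 and KRT18 were the keratins with the highest levels per kb, and their summed level overlapped across the groups. Per kb of transcript, the scale used to compare genes, mean levels in DMSO were 746 CPM for KRT19, 509.7 for KRT8, 462 for KRT7 and 177 for KRT18. KRT8 (chr12:52897187-52949954), the type II partner in simple epithelia, was at 860, 904 and 920 CPM in DMSO, 893, 921 and 843 in CSA, 834, 890 and 906 in TAC and 851, 910 and 901 in VCS. The 4 groups overlapped, and the KRT8 log2 fold changes against DMSO were -0.01 with CSA, -0.03 with TAC and -0.01 with VCS (SE 0.09 each, edgeR adjusted p = 0.988, 0.964 and 0.996). Its partner KRT18 (chr12:52948871-52952901), the type I keratin whose gene lies beside KRT8 on the other strand, was at 252, 280 and 299 CPM in DMSO, 250, 262 and 239 in CSA, 248, 258 and 302 in TAC and 236, 257 and 303 in VCS. The groups overlapped for KRT18 too, with log2 fold changes of -0.15 with CSA, -0.04 with TAC and -0.06 with VCS (SE 0.11 each, edgeR adjusted p = 0.939, 0.961 and 0.963). Exons of KRT8 and KRT18 overlap on opposite strands, which adds to their uncertainty.

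KRT7 and KRT19 stood out among the simple keratins in TAC, in opposite directions. KRT7 (chr12:52232520-52252186), a type II keratin of ducts and glandular epithelia, was at 786, 846 and 797 CPM in DMSO, 842, 838 and 681 in CSA, 946, 1053 and 1014 in TAC and 771, 827 and 751 in VCS. All 3 TAC libraries lay above the other 9. The log2 fold change in TAC was 0.31 (SE 0.10, edgeR adjusted p = 0.92), against -0.04 in CSA and -0.05 in VCS (SE 0.10 each). KRT19 (chr17:41523617-41528308), a type I keratin of simple epithelia, was at 1021, 1030 and 1060 CPM in DMSO, 1041, 1073 and 969 in CSA, 828, 880 and 931 in TAC and 1000, 1037 and 1000 in VCS. All 3 TAC libraries lay below the other 9, with a log2 fold change of -0.24 (SE 0.09, edgeR adjusted p = 0.92), against -0.01 in CSA and -0.03 in VCS. KRT20, the simple keratin of gut and bladder lining cells, had at most 10 counts in a library and was not tested. KRT7-AS, on the other strand of the KRT7 locus, had 205 to 447 counts per library, and strand use in counting is not stated in the labels. Pseudogene rows took 0.557 to 0.872% of the counts of KRT8 and its copies, and 0.896 to 1.25% of those of KRT18.

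The basal keratins KRT5 and KRT14 had their low values in all 6 CSA and TAC libraries. KRT5 (chr12:52514575-52520687), the type II keratin of basal squamous and airway cells, had 424, 179 and 166 counts in DMSO, 45, 62 and 32 in CSA, 80, 40 and 39 in TAC and 508, 336 and 138 in VCS. No CSA or TAC library reached the lowest DMSO or VCS library, and library 1 was the highest in both DMSO and VCS. Mean levels were 7.96 ± 4.27 CPM (SD, n = 3) in DMSO, 1.41 ± 0.53 with CSA, 1.60 ± 0.71 with TAC and 10.5 ± 5.67 with VCS. The log2 fold change was -2.50 in CSA (SE 0.48, edgeR adjusted p = 0.518) and -2.31 in TAC (SE 0.48, edgeR adjusted p = 0.267). It was 0.40 in VCS (SE 0.43, edgeR adjusted p = 0.963).

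KRT14 (chr17:41582279-41586921), the type I partner of KRT5, had 196, 56 and 52 counts in DMSO, 10, 9 and 15 in CSA, 15, 9 and 8 in TAC and 199, 150 and 41 in VCS. As for KRT5, every CSA and TAC library lay below every DMSO and VCS library, and DMSO library 1 and VCS libraries 1 and 2 were the highest. Means were 3.13 ± 2.45 CPM (SD, n = 3) in DMSO, 0.338 ± 0.083 with CSA, 0.322 ± 0.114 with TAC and 4.13 ± 2.48 with VCS. The log2 fold change of KRT14 was -3.19 in CSA (SE 0.62, edgeR adjusted p = 0.518), -3.27 in TAC (SE 0.62, edgeR adjusted p = 0.175) and 0.40 in VCS (SE 0.51, edgeR adjusted p = 0.963).

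By the check described with the processing, replicate numbers met the pairing rule for CSA and DMSO, TAC and DMSO, and VCS and TAC. What the numbers share is not known. A block for replicate number changed the calls in these comparisons and also in VCS against CSA, which did not meet the rule. With the block, KRT5 passed in CSA (log2 fold change -2.43, edgeR adjusted p = 0.0147), where 0.0303% of all tested genes passed, and KRT14 did not (edgeR adjusted p = 0.0695). In TAC, where 0.207% of genes passed, 3 of the 26 keratins did. These were KRT5 (-2.29, edgeR adjusted p = 0.00802), KRT14 (-3.16, edgeR adjusted p = 0.0163) and KRT4 (-2.88, edgeR adjusted p = 0.0366).

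KRT15 (chr17:41513743-41522529) is another type I keratin of the basal layer. It was at 8.33, 7.41 and 9.56 CPM in DMSO, 8.05, 8.03 and 10.4 in CSA, 7.13, 7.00 and 7.83 in TAC and 7.36, 5.82 and 8.91 in VCS. The 4 groups overlapped, and the log2 fold change was 0.07 with CSA, -0.20 with TAC and -0.20 with VCS (SE 0.17 each, edgeR adjusted p = 0.967, 0.92 and 0.963).

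**Figure D2:**
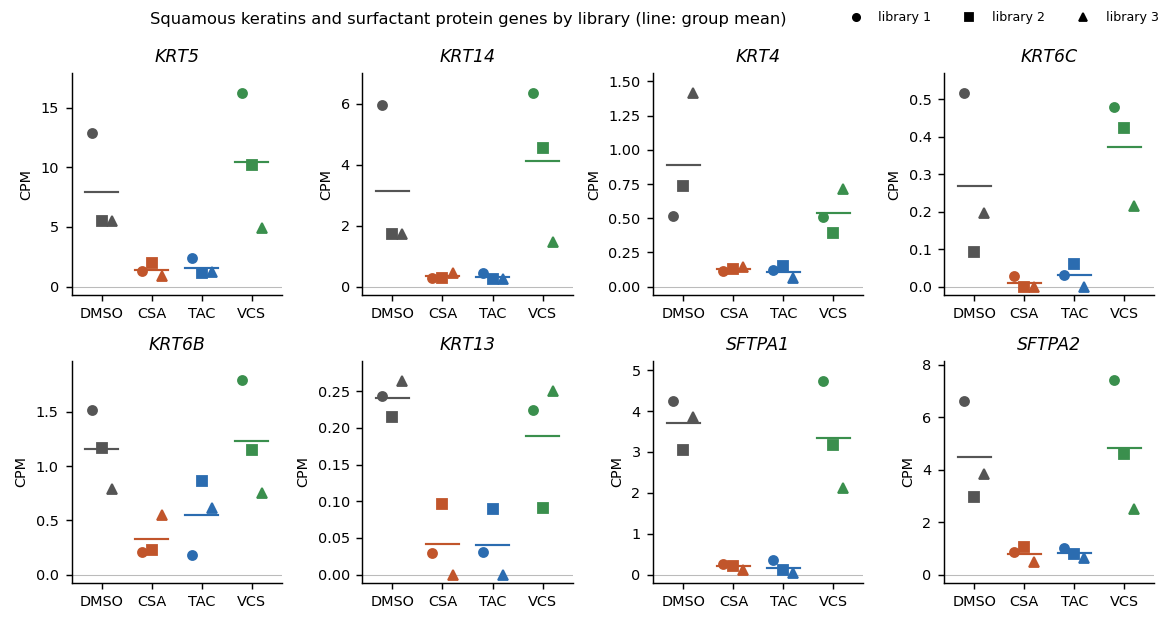
CPM by library for squamous keratins KRT5, KRT14, KRT4, KRT6C, KRT6B and KRT13 and for the surfactant protein genes SFTPA1 and SFTPA2, with the marker giving the library number and the line the group mean. All CSA and TAC points of KRT5, KRT14, KRT4 and SFTPA1 lie below all DMSO and VCS points, and library 1 is the highest of DMSO and of VCS for KRT5 and KRT14.

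Of the mucosal keratins, KRT4 had its low values in the same 6 libraries. KRT4 (chr12:52806549-52814551), a type II keratin of oesophageal and oral lining cells, had 17, 24 and 43 counts in DMSO, 4, 4 and 5 in CSA, 4, 5 and 2 in TAC and 16, 13 and 20 in VCS. CSA and TAC lay below DMSO and VCS in every library, but here library 3 was the highest of DMSO and of VCS. The log2 fold change of KRT4 was -2.74 in CSA (SE 0.49, edgeR adjusted p = 0.403), -2.96 in TAC (SE 0.50, edgeR adjusted p = 0.0861) and -0.72 in VCS (SE 0.42, edgeR adjusted p = 0.963). KRT13 (chr17:41500981-41505705), its type I partner, was under the filter, with 8, 7 and 8 counts in DMSO, 1, 3 and 0 in CSA, 1, 3 and 0 in TAC and 7, 3 and 7 in VCS. Its DMSO libraries lay above all CSA and TAC libraries, while VCS library 2 did not. Summed over the group, 23 DMSO counts stood against 4 in CSA and 4 in TAC. Scaled to library size, the ratio was 6.0 against CSA (exact 95% interval 2.05 to 23.9) and 5.97 against TAC (2.04 to 23.7). These intervals cover counting error only and not the spread between libraries. KRT78, a type II keratin of stratified epithelia, ranged from 7 to 21 counts with overlapping groups. KRT3 and KRT12 of the cornea stayed under 10 counts.

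Among the keratins that squamous cells raise after injury, KRT6C, KRT6B and KRT17 lay below DMSO in all CSA libraries, KRT6C also in all TAC libraries, and KRT6A and KRT16 overlapped DMSO in every group. KRT6C (chr12:52468516-52473785) had 17, 3 and 6 counts in DMSO, 1, 0 and 0 in CSA, 1, 2 and 0 in TAC and 15, 14 and 6 in VCS. Scaled to library size, the 26 DMSO counts against 1 in CSA gave a ratio of 27.1 (exact 95% interval 4.46 to 1110, counting error only). Against 3 in TAC the ratio was 8.99 (2.76 to 46.4). The groups did not overlap, but edgeR's adjusted p was 0.939 in CSA and 0.92 in TAC. KRT6B (chr12:52446651-52452126) had 50, 38 and 24 counts in DMSO, 7, 7 and 19 in CSA, 6, 29 and 20 in TAC and 56, 38 and 21 in VCS. Its CSA libraries lay below DMSO, with a log2 fold change of -1.81 (SE 0.54, edgeR adjusted p = 0.939), while TAC, at -1.07 (SE 0.51), overlapped DMSO. KRT6A (chr12:52487174-52493257) had 310, 188 and 167 counts in DMSO, 143, 141 and 220 in CSA, 204, 242 and 251 in TAC and 347, 222 and 130 in VCS. Its groups overlapped, with log2 fold changes of -0.46 with CSA, 0.02 with TAC and 0.12 with VCS (SE 0.29 each, edgeR adjusted p = 0.939, 0.993 and 0.97).

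KRT16 (chr17:41609778-41615899), the type I partner of the KRT6 proteins, had 67, 56 and 26 counts in DMSO, 14, 18 and 110 in CSA, 17, 114 and 116 in TAC and 98, 59 and 33 in VCS. CSA library 3 and TAC libraries 2 and 3 were the highest of all, and CSA libraries 1 and 2 and TAC library 1 the lowest. The log2 fold change was -0.14 in CSA (SE 0.75, edgeR adjusted p = 0.984), 0.69 in TAC (SE 0.73, edgeR adjusted p = 0.923) and 0.40 in VCS (SE 0.74, edgeR adjusted p = 0.963). The same 3 high libraries were high for SPRR1A, a cornified envelope protein gene, with 14, 25 and 17 counts against 1 to 9 in the other 9. They were low for the collagen gene COL1A2, with 28, 41 and 39 counts against 190 to 328, and for decorin (DCN), with 35, 21 and 18 against 64 to 139. The part of these library differences in the KRT16 values was not tested. COL1A2 and DCN were chosen for their library pattern from a list of 8 fibroblast genes, and the pattern of the others is not given here. The SE differed within the list, but it also depends on the number of counts and does not show which libraries differ. In CSA against DMSO the SE of the log2 fold change was 0.55 for DCN and 0.35 for COL3A1. It was 0.14 for COL1A1 and 0.11 for PDGFRB, of the same list. KRT17 (chr17:41619441-41624842), a type I keratin of injured and appendage epithelium, was at 17.4, 13.8 and 14.0 CPM in DMSO, 12.7, 11.1 and 12.8 in CSA, 11.03, 16.6 and 18.6 in TAC and 17.1, 11.97 and 13.9 in VCS. It was lower in CSA than in DMSO in all libraries by a log2 fold change of -0.30 (SE 0.18, edgeR adjusted p = 0.939), and overlapped DMSO in TAC (0.03) and VCS (-0.08).

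KRT10 (chr17:40818117-40822595), the type I keratin of the suprabasal epidermis, was the squamous keratin with the highest level per kb (22.0 CPM in DMSO) and the only suprabasal one tested. It was at 46.0, 49.8 and 44.2 CPM in DMSO, 44.9, 49.1 and 34.9 in CSA, 35.3, 37.5 and 37.8 in TAC and 37.9, 44.5 and 47.1 in VCS. The TAC libraries lay below DMSO, with a log2 fold change of -0.34 (SE 0.12, edgeR adjusted p = 0.92), against -0.12 in CSA and -0.11 in VCS (SE 0.12 each). Its partner KRT1 had at most 3 counts in a library, as had KRT2, and KRT9 had counts in 1 library. Exons of KRT10 overlap a gene on the other strand. The antisense gene KRT10-AS1 had 245 to 347 counts per library, against 1167 to 1618 for KRT10. Strand use in counting is not stated in the labels, so KRT10 values, and the squamous sum below, carry this uncertainty.

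**Figure D3:**
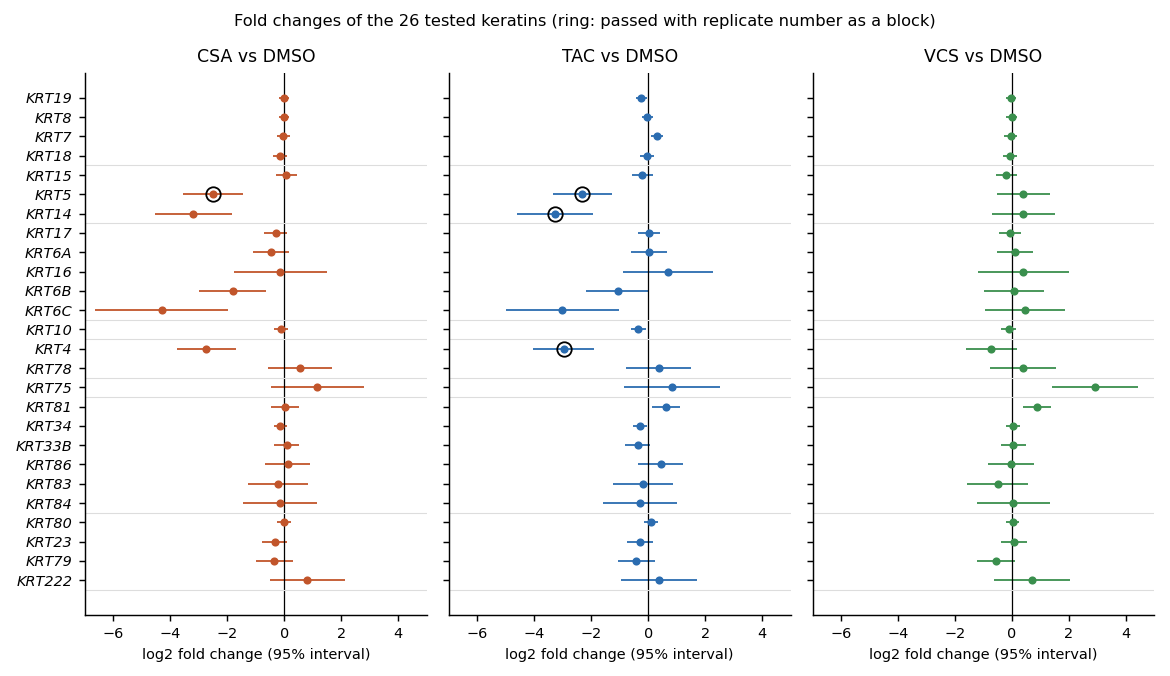
Log2 fold changes against DMSO of the 26 tested keratins by edgeR, with 95% intervals, for CSA, TAC and VCS, with a ring around keratins that passed when replicate number was a block. KRT5, KRT14, KRT4 and KRT6C lie between -4.30 and -2.31 in CSA and TAC and between -0.72 and 0.47 in VCS, while the 4 simple keratins lie between -0.24 and 0.31 in all 3.

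Simple and squamous keratins were then summed in every library. The simple sum was 2919, 3060 and 3075 CPM in DMSO, 3027, 3094 and 2733 in CSA, 2856, 3081 and 3153 in TAC and 2859, 3031 and 2955 in VCS. The 4 groups overlapped, with log2 differences from DMSO of -0.03, 0.01 and -0.03 in CSA, TAC and VCS and a within-group SD of 0.07. The squamous sum was 105, 88.5 and 84.5 CPM in DMSO, 73.1, 76.8 and 70.3 in CSA, 64.0, 74.9 and 77.9 in TAC and 103, 87.9 and 84.5 in VCS. All CSA and TAC libraries lay below all DMSO and VCS libraries, and the log2 differences were -0.34 with CSA, -0.36 with TAC and -0.02 with VCS, with a within-group SD of 0.14. For every 100 simple CPM there were 3.61, 2.89 and 2.75 squamous CPM in DMSO, 2.42, 2.48 and 2.57 in CSA, 2.24, 2.43 and 2.47 in TAC and 3.61, 2.90 and 2.86 in VCS. KRT10 made up 50.3% of the squamous sum in DMSO. Without it the sum was 38.8 to 59.4 CPM in DMSO, 27.7 to 35.4 with CSA, 28.7 to 40.1 with TAC and 37.5 to 65.2 with VCS, so that TAC then overlapped DMSO and VCS. No test is given for these sums. In bulk RNA, fewer cells of a type and less RNA per cell cannot be told apart.

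**Figure D4:**
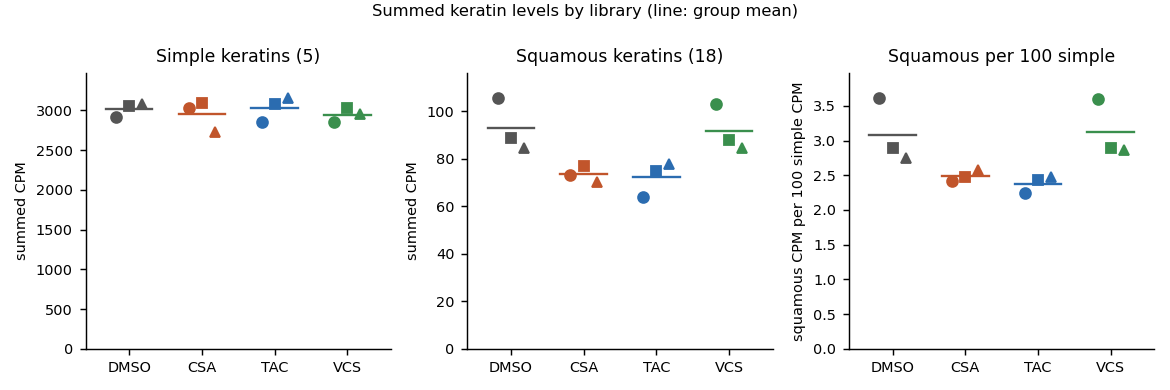
Summed CPM of the 5 simple keratins, of the 18 squamous keratins and the squamous sum per 100 simple CPM in each library, with the marker giving the library number and the line the group mean. The simple sums of the groups overlap between 2733 and 3153 CPM, and the 6 CSA and TAC squamous sums lie at or below 77.9 CPM, under the lowest DMSO and VCS value of 84.5.

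Of 17 hair shaft keratins 6 were tested. KRT81 (chr12:52285913-52291534), a type II keratin of the hair cortex, was at 27.6, 32.3 and 25.8 CPM in DMSO, 37.2, 28.4 and 21.6 in CSA, 45.0, 43.5 and 42.7 in TAC and 32.4, 62.5 and 64.0 in VCS. All TAC libraries lay above all DMSO and CSA libraries, and VCS libraries 2 and 3 were the highest while VCS library 1 was at the upper DMSO level. The log2 fold change was 0.61 in TAC (SE 0.23, edgeR adjusted p = 0.92) and 0.89 in VCS (SE 0.23, edgeR adjusted p = 0.963). Its near copy KRT86 (chr12:52249300-52309163) had 27, 27 and 13 counts in DMSO, 31, 25 and 19 in CSA, 22, 43 and 29 in TAC and 28, 22 and 13 in VCS. The annotated spans of KRT81 and KRT86 overlap on opposite strands. The KRT86 groups overlapped, with log2 fold changes of 0.11 in CSA (SE 0.37), 0.44 in TAC (SE 0.37) and -0.04 in VCS (SE 0.38, edgeR adjusted p = 0.996). KRT34 (chr17:41377650-41382403), a type I hair keratin, was at 28.4, 31.2 and 30.8 CPM in DMSO, 24.9, 32.04 and 25.2 in CSA, 22.5, 24.7 and 26.6 in TAC and 29.9, 33.1 and 30.2 in VCS. Its TAC libraries lay below DMSO by a log2 fold change of -0.29 (SE 0.11, edgeR adjusted p = 0.92). KRT33B, KRT83 and KRT84 ranged from 46 to 72, 4 to 15 and 3 to 14 counts. KRT33B was lower in TAC than in DMSO in all libraries and overlapped in CSA and VCS.

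KRT75, a type II keratin of the companion layer of the hair follicle, had the largest log2 fold change of the tested keratins in VCS against DMSO. It had 5, 1 and 4 counts in DMSO, 11, 3 and 10 in CSA, 6, 7 and 6 in TAC and 7, 27 and 39 in VCS. VCS libraries 2 and 3 held most of its counts, and the log2 fold change in VCS was 2.90 (SE 0.70, edgeR adjusted p = 0.963). The same 2 VCS libraries were high for KRT81, for the desmosomal plaque gene PKP1 (397 and 372 counts against 102 to 223 in the other 10), for SERPINB5 (55 and 51 against 14 to 26) and for the airway mucin gene MUC5B (417 and 387 against 65 to 174). The part of these library differences in the KRT75 and KRT81 values was not tested.

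**Figure D5:**
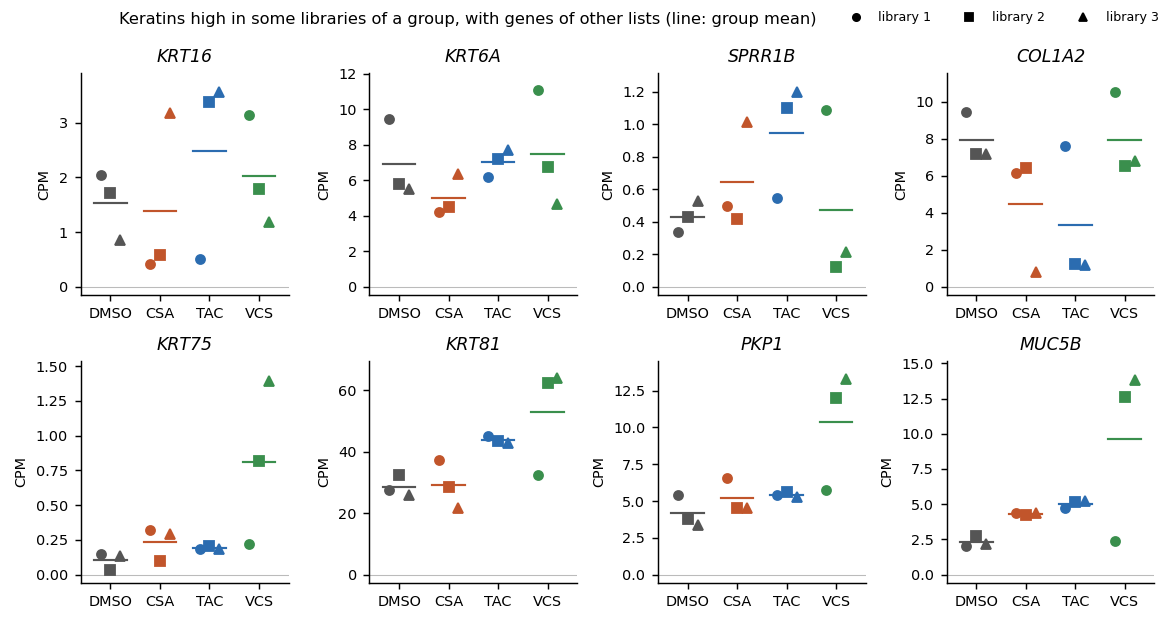
CPM by library for keratins that are high in some libraries of a group, KRT16, KRT6A, KRT75 and KRT81, beside SPRR1B, COL1A2, PKP1 and MUC5B, with the marker giving the library number and the line the group mean. CSA library 3 and TAC libraries 2 and 3 are highest for KRT16 and lowest for COL1A2, and VCS libraries 2 and 3 are highest for KRT75, KRT81, PKP1 and MUC5B.

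The remaining tested members were keratins outside these classes. KRT80 (chr12:52168996-52192000), a type II keratin, was at 84.3, 75.1 and 74.8 CPM in DMSO, 86.4, 71.0 and 74.4 in CSA, 89.7, 82.4 and 79.5 in TAC and 85.6, 84.3 and 68.9 in VCS. The groups overlapped, and its log2 fold changes were -0.01 with CSA, 0.10 with TAC and 0.03 with VCS (SE 0.11 each, edgeR adjusted p = 0.992, 0.923 and 0.983). KRT23, a type I keratin, ranged from 4.90 to 9.44 CPM, and library 3 was the highest of each group. KRT79 was at 57 to 61 counts in DMSO and 26 to 58 in the other groups, and its CPM in all inhibitor libraries lay below DMSO. KRT222, a short keratin-like protein, had 5 to 35 counts with overlapping groups.

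The compounds were compared in 3 pairs at the same dose and time. CSA and TAC, which differ in structure, both had low KRT5, KRT14 and KRT4, with log2 differences of CSA over TAC of -0.19 for KRT5 (95% interval -1.28 to 0.90), 0.07 for KRT14 (-1.49 to 1.64) and 0.23 for KRT4 (-1.06 to 1.51), so that differences within those intervals remain possible. At an unadjusted p under 0.05, 4 of 26 keratins were counted between CSA and TAC, among 7.52% of all tested genes, 2 higher and 2 lower. They were KRT7 (-0.35, SE 0.10, edgeR adjusted p = 0.494), KRT81 (-0.59, SE 0.23), KRT19 (0.23, SE 0.09) and KRT33B (0.45, SE 0.20). VCS and its analog CSA lay furthest apart in KRT6C, KRT14 and KRT5, though no difference passed by edgeR with group as the only term. VCS over CSA was 2.90 for KRT5 (SE 0.49, 95% interval 1.84 to 3.95, edgeR adjusted p = 0.189) and 3.59 for KRT14 (SE 0.62, 2.253 to 4.932, edgeR adjusted p = 0.202). KRT6C, KRT4, KRT6B, KRT75 and KRT81 were also higher at an unadjusted p under 0.05, which makes 7 of 26 against 2.54% of all tested genes. With the near copies summed this was 6 of 23. With replicate number as a block, KRT5 (2.79, edgeR adjusted p = 0.00463) and KRT14 (3.45, edgeR adjusted p = 0.0226) passed, where 6 of 19784 genes did. The replicate numbers did not meet the pairing rule for VCS and CSA.

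VCS over TAC was 2.71 for KRT5 (SE 0.48, 95% interval 1.67 to 3.75, edgeR adjusted p = 0.1) and 3.67 for KRT14 (SE 0.63, 2.32 to 5.02, edgeR adjusted p = 0.0822). At an unadjusted p under 0.05, 9 keratins were counted, 8 higher and 1 (KRT7) lower, against 3.63% of all tested genes. With the near copies summed this count was 7 of 23, 6 higher and 1 lower. With replicate number as a block, KRT5 (2.65, edgeR adjusted p = 0.00193) and KRT14 (3.61, edgeR adjusted p = 0.00677) passed, where 0.207% of genes did, in VCS against TAC. In the test of any difference among the 4 groups, edgeR's adjusted p was 0.0544 for KRT14, 0.0574 for KRT5 and 0.0769 for KRT4. The comparisons with DMSO share its 3 libraries, and the pairs share libraries too, so they are not separate evidence. Between VCS and DMSO the intervals of KRT5 (-0.54 to 1.33) and KRT14 (-0.704 to 1.502) still hold sizeable differences.

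Over the 11 tested squamous keratins the median log2 fold change was -0.46 with CSA, -0.34 with TAC and 0.12 with VCS, and over the 4 tested simple keratins -0.03, -0.04 and -0.04. The median over all tested genes was between -0.00439 and 0.00415. Of the 11, 9 lay below 0 in CSA, 7 in TAC and 4 in VCS.

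Genes that work with keratins were described by list. Of 27 filament partners, desmosomal and hemidesmosomal genes among them, 24 were tested and 0 passed in any of the 7 tests by edgeR. At an unadjusted p under 0.05, 2 of the 24 were counted in CSA (1 higher and 1 lower), 1 in TAC (lower) and 2 in VCS (both higher). The shares over all tested genes were 3.75%, 4.65% and 3.27%. The gene counted in TAC was JUP, at -0.19 (SE 0.09, edgeR adjusted p = 0.92). PLEC, the plectin linker gene, had a log2 fold change of 0.32 in CSA (SE 0.14, edgeR adjusted p = 0.939), and PKP1, a plakophilin of desmosomes, 1.304 in VCS (SE 0.28, edgeR adjusted p = 0.963). Of 16 other intermediate filament genes 15 were tested and 0 passed, with 1 gene at an unadjusted p under 0.05 in CSA (NES, which encodes nestin, at 0.32, SE 0.14) and 0 in TAC and VCS. Of 17 epithelial regulators and cadherins 15 were tested and 0 passed, with 1 at an unadjusted p under 0.05 in CSA and in TAC, which was CDH3 (P-cadherin) at -1.02 (SE 0.32) and -0.95 (SE 0.32). TP63, the regulator of basal squamous cells that controls KRT5 and KRT14, had 2 to 16 counts per library.

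Markers of other cell types were set beside the keratins. Of 17 squamous markers 16 were tested and 0 passed, and their summed level was 223 to 293 CPM in DMSO, 236 to 297 with CSA, 244 to 283 with TAC and 250 to 311 with VCS. At an unadjusted p under 0.05, 3 of the 16 were lower and 1 higher in CSA, where the share over all tested genes was 3.75%. In TAC 1 was lower and 1 higher (4.65%), and in VCS 0 were lower and 1 higher (3.27%). Within that list FGFBP1 was at -0.95 in CSA (SE 0.33), not passing. IVL, which encodes involucrin, was at 0.79 in CSA (SE 0.31) and 0.93 in TAC (SE 0.31), not passing either. Of 14 airway and alveolar markers 11 were tested, of which 1, SFTPA1, passed against DMSO with either CSA or TAC and 0 with VCS, and their sum was 23.2 to 32.4 CPM in DMSO, 21.4 to 28.1 with CSA, 24.0 to 27.8 with TAC and 33.0 to 43.1 with VCS. Lung surfactant gene SFTPA1 had the same split as KRT5, with 140, 99 and 117 counts in DMSO, 9, 7 and 4 in CSA, 12, 4 and 1 in TAC and 148, 105 and 59 in VCS, and fell by 4.19 in CSA (SE 0.50, edgeR adjusted p = 0.0258) and by 4.41 in TAC (SE 0.51, edgeR adjusted p = 0.0143) on the log2 scale. Its copy SFTPA2 had 96 to 218 counts in DMSO, 16 to 33 with CSA, 20 to 34 with TAC and 70 to 231 with VCS. SFTPB, another surfactant gene, did not follow them, with 334, 226 and 223 counts in DMSO, 560, 488 and 330 in CSA, 523, 413 and 480 in TAC and 569, 284 and 183 in VCS. Of the 11 tested airway genes, 3 were lower and 1 higher in CSA at an unadjusted p under 0.05, and 2 lower and 2 higher in TAC. SFTPC, of alveolar type II cells, had 51 counts in DMSO library 1 and 58 and 35 in VCS libraries 1 and 2, the libraries where KRT14 was highest, and 1 to 13 in the other 9. The part of RNA from other cells in the keratin values was not tested.

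No gene of the other lists passed in any of the 7 tests by edgeR. Hepatocyte genes, all 10 tested, of which 7 were higher in TAC at an unadjusted p under 0.05 (4.65% of all tested genes were counted there in either direction), summed to 261 to 334 CPM in DMSO, 250 to 497 with CSA, 450 to 516 with TAC and 252 to 507 with VCS. Fibroblast genes, all 8 tested, summed to 3801 to 4562, 4254 to 6212, 4066 to 4344 and 4213 to 4579 CPM in the same order. The sums were 68.4 to 82.9, 83.9 to 95.6, 51.4 to 74.0 and 66.6 to 93.6 CPM for mesothelium, and 945 to 1118, 954 to 1159, 848 to 929 and 894 to 1063 for the parietal epithelium of Bowman capsule. Podocyte markers summed to 1527 to 1684, 1666 to 1882, 1565 to 1685 and 1564 to 1678 CPM. Urothelium stayed at 3.19 to 4.96 CPM and renal tubule at 3.10 to 6.66 over all libraries. ITLN1 of mesothelium and UMOD of the tubule had no count in any library.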

How the data were processed

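The 12 libraries were made from poly(A) RNA with in-line UMIs and ERCC spike-ins, per the labels' protocols. The values are estimated counts (expected counts) per Ensembl gene that the authors deposited for all 12 libraries in 1 table, already whole numbers. Salmon and GRCh38 are named in the submitters' processing notes, with no versions. UMI collapsing, strand and annotation release are not given in the sources used here, so counts may include copies of the same molecule, and intervals on counts cover counting error only.

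Symbols, classes of transcript and coordinates came from GENCODE 29 on GRCh38. Levels were CPM with TMM library sizes, divided by transcript length only to compare genes. Genes were kept by edgeR's filterByExpr with a minimum count of 10, which left 19784. They were tested with edgeR 4.0.16 (glmQLFit and glmQLFTest) in R 4.3.3, all 12 libraries in 1 fit with group as the only term, Benjamini-Hochberg adjustment over all tested genes and a threshold of 0.05, with 8 residual degrees of freedom. DESeq2 1.42.0 was an alternative, as were RLE size factors, no filter, near copies summed to 1 row, a robust spread, only the groups compared, a replicate block and each library left out. Class sums were described without a test, and with 3 libraries against 3 an exact permutation test could not go below 0.1.

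The members, classes and lists were chosen with earlier results of these data known. All keratins kept by the filter were named, and others where a library had 10 counts or more. Those with no count in any library were also named (KRT26, KRT28 and KRT76), as was KRT33A for its shared sequence. A few were named where a partner was described (KRT13, KRT1, KRT2, KRT3, KRT9 and KRT12, chosen after their values were seen). Of each other list, members with the smallest p and defining markers were named. The genes beside KRT16 and KRT75 were chosen for their library pattern.

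Replicate numbers were taken to pair libraries where every same-numbered pair had correlated deviations over 0.1. This held for CSA and DMSO (0.103 to 0.22), TAC and DMSO (0.108 to 0.377) and VCS and TAC (0.232 to 0.532). VCS and DMSO missed the rule by 1 pair (0.0975), with 0.28 and 0.428 for the others. The block itself was 1 term in a single fit of all 12 libraries, so it entered every comparison. The numbers come from the sample titles, which do not say what they share. Results for 1 podocyte marker and 1 sequence pair are not reported here.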

Additional observations from a re-analysis of the deposited data

How the results depend on the processing

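The fit with no filter on low counts and DESeq2 each covered 52 keratins and 39923 genes, against 26 and 19784 in the fit as reported. Their counts are therefore of a larger set. With no filter, the keratins past the threshold numbered 5 in CSA, 4 in TAC, 2 in VCS, 1 in CSA against TAC, 5 in VCS against CSA, 2 in VCS against TAC and 7 in the test of any difference. The genes numbered 86, 131, 69, 87, 70, 101 and 285, where the fit as reported gave 2, 7, 1, 6, 2, 5 and 10 genes and 0 keratins. With DESeq2 the keratins numbered 2 in CSA, 3 in TAC, 2 in VCS against CSA, 2 in VCS against TAC and 5 in the test of any difference, and the genes 7, 34, 8, 46, 11, 37 and 67. With replicate number as a block the keratins numbered 1 in CSA, 3 in TAC, 2 in VCS against CSA, 2 in VCS against TAC and 3 in the test of any difference, and the genes 6, 41, 0, 65, 6, 41 and 34. The numbers did not meet the pairing rule in VCS against DMSO (lowest correlation 0.0975), CSA against TAC (0.00694) and VCS against CSA (0.0766), and 11 of 12 libraries correlated best with their own number. With a robust spread the genes were 0 in VCS, 1 in VCS against CSA and 8 in VCS against TAC. With only the groups compared they were 1 in TAC, 0 in VCS, 1 in CSA against TAC and 0 in VCS against TAC. Without the 4 libraries numbered 3 they were 0 in CSA, 3 in TAC, 1 in CSA against TAC, 6 in VCS against CSA and 9 in VCS against TAC, and no keratin passed. Leaving out each library gave 0 to 2 genes in CSA, 0 to 10 in TAC, 0 to 8 in VCS, 0 to 6 in CSA against TAC, 0 to 7 in VCS against CSA, 0 to 12 in VCS against TAC and 1 to 23 in the test of any difference. The keratins then numbered 0 in CSA, 0 to 1 in TAC, 0 in VCS, 0 in CSA against TAC, 0 to 2 in VCS against CSA, 0 to 2 in VCS against TAC and 0 to 2 in the test of any difference. Without VCS library 3, KRT14 passed in TAC against DMSO, and KRT5 and KRT14 passed in VCS against CSA and against TAC. Without DMSO library 1, KRT14 passed in both of the latter. An alternative chosen after seeing the data, the squamous sum without KRT10, moved the CSA log2 difference to -0.60 for the sum and -0.56 for the ratio. The cause of these differences was not tested. Low counts limit KRT6C, KRT13, KRT75 and KRT4.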
